A study of Mus musculus with 3 samples.

Results

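The genes described here are those of complement, blood coagulation and fibrinolysis in mouse kidney. They were chosen by name: 47 genes were listed, and a gene counted as measured when the array had a probe set annotated with its symbol alone. By that rule 41 of the 47 were found, on 68 probe sets, among 18193 genes measured in all. C4b was represented only by a probe set that carries several symbols, and C3, C7, Cfd, F2rl1 and Serpine2 were not analysed here. Kidney RNA came from 3 C57BL/6 mice, 1 array per mouse and 1 kidney sample per array. One mouse was the control, and 2 received 200 mM acetate (labelled C2) with their drinking water, starting at 3 weeks of age and lasting 6 weeks. Acetate, a short-chain fatty acid, is also a product of gut bacteria. What the control mouse drank, the sex of the mice and whether they shared a cage or litter is not stated in the labels.

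Complement is a cascade of plasma and tissue proteases that tags cells and debris for removal. It starts through C1q on bound antibody or dying cells (classical pathway), through lectins that bind sugars, or by its own slow turnover (alternative pathway), and it ends in membrane pores. Coagulation is another protease cascade, in which tissue factor leads through factors VII, X and V to thrombin, and thrombin turns fibrinogen into fibrin; the endothelial surface holds it in check and plasmin dissolves the clot. The liver makes most of these proteins for plasma, but in the kidney macrophages are the classic source of C1q, tubule cells make C3, C4 and factor B locally, and endothelial cells carry thrombomodulin and von Willebrand factor.

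All values are deposited log2 expression values, on which a difference of 1 is a 2-fold change, and they are compared between arrays for one probe set, never between genes. Kidney identity was plain on all 3 arrays: Umod, the thick ascending limb protein uromodulin, was 13.53 in the control and 13.67 and 13.64 in the acetate-fed mice. A gene was represented by its probe set with the highest mean, and 38 of the 41 members had a probe set in the upper 60% of all probe sets by mean over the 3 arrays. C6, F7 and Plg lay below that line, with control values of 3.68, 3.54 and 3.45 and no acetate-fed value more than 0.04 away. With 1 control array, each difference contains whatever was particular to that kidney, and the differences of both acetate-fed mice share it. In bulk tissue, fewer cells of a type and less RNA per cell cannot be told apart.

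Among the 38 members, C1q, its inhibitor and several endothelial genes exceeded the control in both acetate-fed kidneys, while haptoglobin, factor V and the fibrinogen chains were lower in both. In acetate-fed mouse 1, 14 of the 38 were at least 1.5-fold higher than in the control (4.30% of all 13473 genes tested) and 2 were at least 1.5-fold lower (2.41% of all genes). In acetate-fed mouse 2, 7 were at least 1.5-fold higher (2.44% of all genes) and 5 at least 1.5-fold lower (2.59% of all genes). Both acetate-fed values lay above the control for 20 members (26.0% of all genes) and below it for 11 (30.9% of all genes). The medians over the 38 members were 0.25 (mouse 1) and 0.24 (mouse 2), against 0 and 0 over all genes tested. Members at least 1.5-fold higher were thus 36.8% of those tested in mouse 1 and 18.4% in mouse 2. Those at least 1.5-fold lower were 5.26% and 13.2%. With both mice on one side of the control, 52.6% of the tested members lay above it. The share below it in both mice, 28.9%, was near the background.

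**Figure D1:**
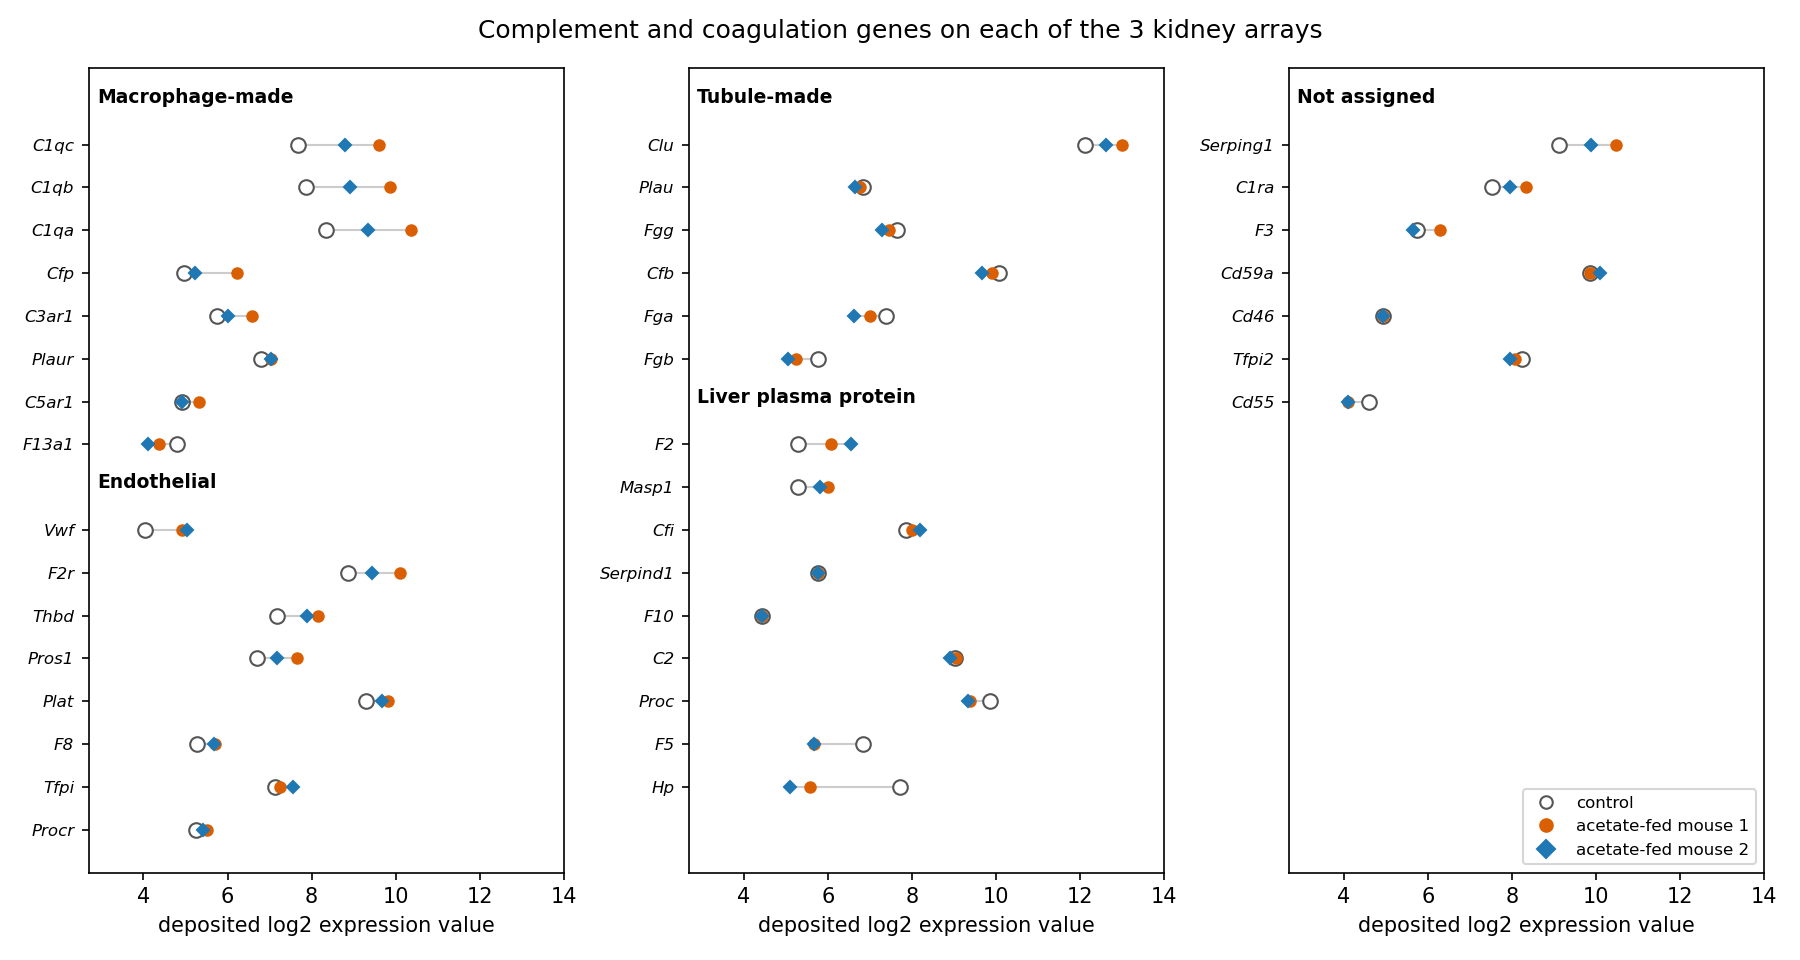
Deposited log2 expression value (x axis) of the 38 tested members on the control array (open circles), acetate-fed mouse 1 (filled circles) and acetate-fed mouse 2 (diamonds), grouped by the usual source of the protein and ordered by mean difference; 1 array per mouse, no error bars. The 3 C1q chains and Serping1 lie to the right of the control in both mice, and Hp and F5 to the left.

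The test across all genes was limma's, acetate against control, with Benjamini-Hochberg adjustment over 27022 probe sets. It takes its spread mainly from the acetate-fed pair, so it tends to call genes for which both acetate-fed values are nearly or exactly equal. It called 1 member higher (3.97% of all genes were called higher) and 2 lower (4.92% of all genes), shares near the background. Plaur, the receptor that holds urokinase at the cell surface, rose from 6.80 to 7.03 in both mice (1.17-fold, adjusted p = 0.013 by limma). Cd55, which breaks up complement convertases on the cell surface, fell from 4.59 to 4.11 in both mice (1.39-fold, adjusted p = 0.0091 by limma). Both acetate-fed values of Cd55 lay under the mean of 4.21 needed for testing, so it was tested only because of its higher control value. F5 fell from 6.85 to 5.69 in mouse 1 and 5.67 in mouse 2 (2.25-fold on the mean, adjusted p = 0.019 by limma). The acetate-fed values of Plaur and Cd55 were exactly tied, as were those of 92.3% of all probe sets called and 33.7% of all tested. All 3 calls were lost after quantile normalization or median centring of the arrays (adjusted p = 0.24 and 0.091 for F5, 0.24 and 0.093 for Cd55, 0.26 and 0.22 for Plaur). With exactly tied pairs left out, limma called 15 members higher (6.14% of all genes in that fit) and 6 lower (5.60%) of 33. That fit rests mainly on a spread pooled over all probe sets (26.5 prior degrees of freedom against 1 from the pair), so it reflects the size of the mean difference more than the likeness of the acetate-fed pair. Under the other settings, the adjusted p of the 20 members called only in that fit ran from 0.093 to 0.97, and those of F5, Cd55 and Plaur reached 0.24, 0.24 and 0.26.

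The C1q genes had the largest upward differences among the members on the mean and in mouse 1, while in mouse 2 F2 exceeded them. C1q, made of A, B and C chains, is the recognition part of the classical pathway, and its 3 genes lie next to each other in the mouse genome. C1qa measured 8.34 in the control and 10.36 and 9.35 in acetate-fed mice 1 and 2, which is 4.05-fold and 2.01-fold above the control. C1qb was 7.87, 9.86 and 8.90 in the same order, 3.98-fold and 2.05-fold higher. C1qc was 7.68, 9.61 and 8.79, 3.79-fold and 2.16-fold higher. On these probe sets the 3 chains gave like pairs of fold changes, with both acetate-fed mice above the control and mouse 1 highest. The other C1qb probe sets gave smaller differences, 1.27 and 1.73 in mouse 1 and 0.76 and 0.80 in mouse 2. As means of the acetate-fed mice they were 9.85 ± 0.71 for C1qa, 9.38 ± 0.68 for C1qb and 9.20 ± 0.58 for C1qc (SD, n = 2). None passed limma's test on all probe sets (adjusted p = 0.63, 0.61 and 0.55), and each passed it with tied pairs left out (adjusted p = 7e-06, 5e-06 and 1.2e-06). Macrophage markers moved with C1q: 11 of 12 listed markers, among them Adgre1, Csf1r, Cd68 and Mrc1, lay above the control in both mice (26.0% of all genes). Their summed linear signal measured 2197 in the control and 7610 and 4279 in acetate-fed mice 1 and 2. The remaining marker, Fcgr1, was 5.95, 5.95 and 5.97. The part of macrophage number in the C1q values was not tested.

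The bases before the start of C1qb and C1qc are shown because these neighbouring genes moved together and PU.1, a transcription factor of macrophages, binds sites with a GAGGAA core. They are RefSeq sequence, build GRCm38.p6, minus strand, 250 bases up to the start, at chr4:136886201-136886450 for C1qb and chr4:136892915-136893164 for C1qc. Capitals mark GAGGAA on either strand.
C1qb: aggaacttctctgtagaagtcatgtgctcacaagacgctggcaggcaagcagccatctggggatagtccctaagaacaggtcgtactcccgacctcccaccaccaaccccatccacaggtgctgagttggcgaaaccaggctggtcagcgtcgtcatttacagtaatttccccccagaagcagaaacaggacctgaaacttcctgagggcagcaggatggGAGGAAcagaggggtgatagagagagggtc
C1qc: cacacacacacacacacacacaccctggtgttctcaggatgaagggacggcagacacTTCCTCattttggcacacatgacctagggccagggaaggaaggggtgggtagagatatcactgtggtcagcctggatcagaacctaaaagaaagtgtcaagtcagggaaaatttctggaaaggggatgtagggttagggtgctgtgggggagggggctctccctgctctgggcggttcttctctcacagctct
C1qb holds 1 match, 30 to 25 bases before the start, and C1qc 1 match on the opposite strand, 193 to 188 bases before the start. Of all 32851 promoters of this length, 23.3% hold the same letters on either strand, so a match is common. Among other members usually made by macrophages, Plaur holds 2 matches, F13a1 holds 1 in 1 of its 2 entries, and C3ar1, C5ar1 and Cfp hold 0. Fgb, a fibrinogen gene that was lower in both mice, holds 2. Of the 47 listed genes 31 had an entry in the promoter table.

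The next steps of the classical pathway went the same way for C1r and its inhibitor, but not for C2. Serping1, the C1 inhibitor, which also blocks plasma kallikrein, measured 9.11 in the control and 10.48 and 9.87 in acetate-fed mice 1 and 2. Both acetate-fed values were above the control, by 2.58-fold and 1.69-fold (adjusted p = 0.57 by limma, 2.2e-05 with tied pairs left out). C1ra, a protease of the C1 complex, was 7.53, 8.32 and 7.96, or 1.73-fold and 1.34-fold higher. C2, the protease that joins C4b in the C3 convertase, was 9.02, 9.06 and 8.92, with the control between the acetate-fed values. Its 3 probe sets agreed, with differences of 0.04 to 0.11 in mouse 1 and -0.10 to -0.06 in mouse 2. Over the 6 tested genes of the classical pathway the median differences were 1.65 and 0.88.

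Genes of the lectin and alternative pathways were mixed. Masp1, a protease of the lectin pathway, was 5.30 in the control and 6.01 and 5.81 in the acetate-fed mice (1.64-fold and 1.42-fold higher). Of its other tested probe sets, one was equal on all 3 arrays and one was 0.29 and 0.28 higher, so the size rests on 1 probe set. Cfp, properdin, which stabilises the alternative convertase, was 4.98, 6.22 and 5.23, above the control by 2.38-fold in mouse 1 and by 1.20-fold in mouse 2. Its other tested probe set was 4.36 on all 3 arrays. Cfb, factor B, the protease of the alternative convertase, measured 10.07 in the control and 9.90 and 9.67 in acetate-fed mice 1 and 2, 1.13-fold and 1.33-fold lower. C2 and Cfb lie next to each other in the genome. Cfi, factor I, which cleaves C3b and C4b, was 7.85, 7.99 and 8.20, with both acetate-fed values above the control by 1.10-fold and 1.28-fold.

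Anaphylatoxin receptors differed mainly in mouse 1. C3ar1, the receptor for C3a, measured 5.75 in the control and 6.58 and 6.02 in acetate-fed mice 1 and 2 (1.78-fold and 1.20-fold higher). Its 3 tested probe sets gave 0.64 to 0.83 in mouse 1 and 0 to 0.45 in mouse 2. Apart from the one that stands for the gene, they had a control value of 4.09, under the mean of 4.21 needed for testing. They were tested only because of higher acetate-fed values, so their direction carries no weight. C5ar1, the receptor for C5a on neutrophils and macrophages, was 4.91, 5.32 and 4.91, so mouse 2 equalled the control.

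Among the regulators that protect cells or bind the terminal complex, Clu was above the control in both mice, while Cd55, Cd59a and Cd46 showed no shared direction. Clu, clusterin, which binds terminal complexes and is a known gene of stressed tubules, measured 12.11 in the control and 13.01 and 12.63 in acetate-fed mice 1 and 2. Both acetate-fed values were above the control, by 1.86-fold and 1.43-fold (adjusted p = 0.55 by limma, 3.2e-04 with tied pairs left out). All 4 Clu probe sets agreed, with 0.90 to 1.02 in mouse 1 and 0.51 to 0.69 in mouse 2. Tubular injury markers moved with it: 5 of 5 tested lay above the control in both mice (26.0% of all genes), Lcn2 at 6.36, 10.44 and 8.67. Cd59a, which blocks assembly of the pore, was 9.85, 9.85 and 10.10, and Cd46, a cofactor for factor I that mice express mainly in testis, was 4.93 on all 3 arrays. Cd55 fell as given above, and both of its acetate-fed values lay below the mean of 4.21 that probe sets needed for testing. A second Cd55 probe set, just under that line, was 4.66 in the control and 4.04 and 3.91 in the acetate-fed mice. The last was 3.85 on all 3 arrays.

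Coagulation factors split into those higher and those lower in the acetate-fed kidneys. F2 encodes prothrombin, the precursor of thrombin. It measured 5.30 in the control and 6.09 and 6.56 in acetate-fed mice 1 and 2, 1.73-fold and 2.41-fold higher (adjusted p = 0.49 by limma, 1.3e-04 with tied pairs left out). F2 was the member with the largest excess of mouse 2 over mouse 1 (0.48). F5, the cofactor for thrombin generation, lay lower on its second probe set too, at 6.02 in the control and 5.42 and 5.38 in the acetate-fed mice. The probe sets differed in size, and with the mean of both the call was lost (adjusted p = 0.077 by limma). F8, the endothelial cofactor lacking in haemophilia A, was 5.26 in the control and 5.70 and 5.67 in the acetate-fed mice, 1.36-fold and 1.33-fold higher (adjusted p = 0.10 by limma). F3, tissue factor, was 5.75, 6.30 and 5.64, with the control between the acetate-fed values. F10 was 4.44 on all 3 arrays.

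F13a1, the A subunit of factor XIII, which crosslinks fibrin and is made by platelets and macrophages, was lower: 4.79 in the control and 4.36 and 4.10 in acetate-fed mice 1 and 2. This was 1.35-fold and 1.61-fold below the control, opposite in sign to the C1q chains. F13a1 passed only with tied pairs left out (adjusted p = 0.48 by limma, 0.031 without tied pairs). All its values lay under the array medians of 4.91 to 4.94, and the mouse 2 value under the mean of 4.21 needed for testing. The mouse 1 value of 4.36 equalled the value that the other tested Cfp probe set had on every array. The direction of F13a1 therefore carries little weight as a contrast to C1q. Of the platelet markers tested, Pf4 was 5.89, 6.68 and 5.76 and Itga2b 7.19, 6.91 and 7.37, while Treml1 rose from 4.57 to 4.86 in both mice (adjusted p = 0.0091 by limma, acetate-fed values tied).

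The fibrinogen chains were all lower in both acetate-fed mice, more so in mouse 2. Fga measured 7.39 in the control and 7.01 and 6.61 in acetate-fed mice 1 and 2, 1.30-fold and 1.72-fold lower. Fgb was 5.78, 5.25 and 5.05, 1.45-fold and 1.66-fold lower, and Fgg was 7.64, 7.46 and 7.29, 1.13-fold and 1.27-fold lower. Both acetate-fed values lay below the 1 control value for all 3 chains, as they did for 30.9% of all genes tested. The mean difference was -0.58 for Fga, -0.63 for Fgb and -0.26 for Fgg (adjusted p = 0.64, 0.37 and 0.63 by limma). With tied pairs left out, Fga (adjusted p = 0.015) and Fgb (adjusted p = 0.010) passed as lower by limma. Fibrinogen chains are known to be induced in injured tubules. Tubular injury markers were higher in both acetate-fed mice, and the part of injury in the fibrinogen values was not tested.

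The bases before the start of the fibrinogen genes are shown because these neighbours, like the C1q genes, moved together, in the other direction. They are RefSeq sequence, build GRCm38.p6, 250 bases up to the start, at chr3:83025903-83026152 (plus strand) for Fga, chr3:83049864-83050113 (minus strand) for Fgb and chr3:83007474-83007723 (plus strand) for Fgg. Capitals mark CTGGGAA, a core of interleukin-6 response elements, and TTNNGCAA, a core of C/EBP sites, on either strand.
Fga: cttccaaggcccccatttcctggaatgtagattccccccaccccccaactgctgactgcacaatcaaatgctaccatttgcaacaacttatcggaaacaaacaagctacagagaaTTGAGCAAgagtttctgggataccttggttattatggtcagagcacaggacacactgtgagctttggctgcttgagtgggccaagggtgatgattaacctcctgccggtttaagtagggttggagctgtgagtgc
Fgb: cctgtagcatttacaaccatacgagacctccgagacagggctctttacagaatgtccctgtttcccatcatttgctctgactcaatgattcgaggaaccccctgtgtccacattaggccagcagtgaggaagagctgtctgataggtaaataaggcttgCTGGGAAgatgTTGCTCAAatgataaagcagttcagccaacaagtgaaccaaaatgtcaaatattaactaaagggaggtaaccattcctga
Fgg: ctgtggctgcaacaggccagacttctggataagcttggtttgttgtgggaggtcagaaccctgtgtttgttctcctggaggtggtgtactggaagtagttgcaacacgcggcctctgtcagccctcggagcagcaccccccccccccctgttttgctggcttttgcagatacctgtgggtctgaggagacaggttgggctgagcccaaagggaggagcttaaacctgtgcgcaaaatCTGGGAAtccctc
CTGGGAA was found once each in Fgb, 91 to 85 bases before the start, and in Fgg, 13 to 7 bases before it. TTNNGCAA was found once each in Fga, 135 to 128 bases before the start, and in Fgb on the opposite strand, 80 to 73 bases before it. Of all promoters of this length, 9.1% hold CTGGGAA and 9.56% hold TTNNGCAA. The matches are a description and are not shown to act here.

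Genes of the endothelial surface lay above the control in both mice. Vwf, von Willebrand factor, which tethers platelets and carries factor VIII, measured 4.03 in the control and 4.92 and 5.03 in acetate-fed mice 1 and 2, 1.86-fold and 2.00-fold higher. The acetate-fed pair differed by less than its distance from the control (4.98 ± 0.07, SD, n = 2, adjusted p = 0.15 by limma). The control value of Vwf lay under the mean of 4.21 needed for testing, so Vwf was tested only because of its higher acetate-fed values. Thbd, thrombomodulin, which turns thrombin towards protein C, was 7.16, 8.15 and 7.88, 1.98-fold and 1.65-fold higher (adjusted p = 0.37 by limma). Procr, the endothelial protein C receptor, was 5.25, 5.52 and 5.42, 1.21-fold and 1.13-fold higher. F2r, the thrombin receptor PAR1, was 8.85, 10.10 and 9.43, with differences of 1.25 and 0.58, and its second probe set gave differences of 1.11 and 0.47. Pros1, protein S, the cofactor of activated protein C, was 6.70, 7.65 and 7.19, 1.94-fold and 1.40-fold higher. All 8 members listed as endothelial lay above the control in both mice (26.0% of all genes). At least 1.5-fold higher were 4 of them (Vwf, F2r, Pros1 and Thbd) in mouse 1 (4.30% of all genes). In mouse 2 these were 2 (Vwf and Thbd, 2.44% of all genes). Endothelial markers outside this set were higher by less: 9 of 10 lay above the control in both mice, with medians of 0.25 and 0.25 and a summed linear signal of 5278, 6529 and 6393. Kdr was 8.61, 8.63 and 8.64, Flt1 was 7.77, 7.78 and 7.83, and Cldn5 was 8.19 on all 3 arrays to 2 decimals. F2r is also expressed by fibroblasts, whose 7 markers were all above the control in both mice with medians of 1.15 and 0.52; their part in F2r was not tested.

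Other anticoagulants did not share that direction. Proc encodes protein C, which inactivates factors V and VIII. It was 9.85 in the control and 9.38 and 9.33 in the acetate-fed mice, 1.39-fold and 1.44-fold lower (adjusted p = 0.14 by limma, 0.0076 with tied pairs left out). Its receptor, activator and cofactor genes, Procr, Thbd and Pros1, were thus above the control where Proc itself was below it. Tfpi, which inhibits tissue factor with factor VII, was 7.12, 7.25 and 7.54, and 2 of its 4 tested probe sets were equal on all 3 arrays. Tfpi2, a related inhibitor of plasmin and trypsin-like proteases, was 8.24, 8.07 and 7.96, 1.13-fold and 1.22-fold lower. Serpind1, heparin cofactor II, was 5.78 on all 3 arrays.

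In fibrinolysis the differences were small. Plat, tissue plasminogen activator, measured 9.29 in the control and 9.81 and 9.67 in acetate-fed mice 1 and 2, 1.44-fold and 1.30-fold higher (adjusted p = 0.37 by limma, 0.017 with tied pairs left out). Plau, urokinase, which tubule cells release into urine, was 6.84, 6.77 and 6.66, 1.05-fold and 1.14-fold lower. Plaur rose 1.17-fold, as given above.

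**Figure D2:**
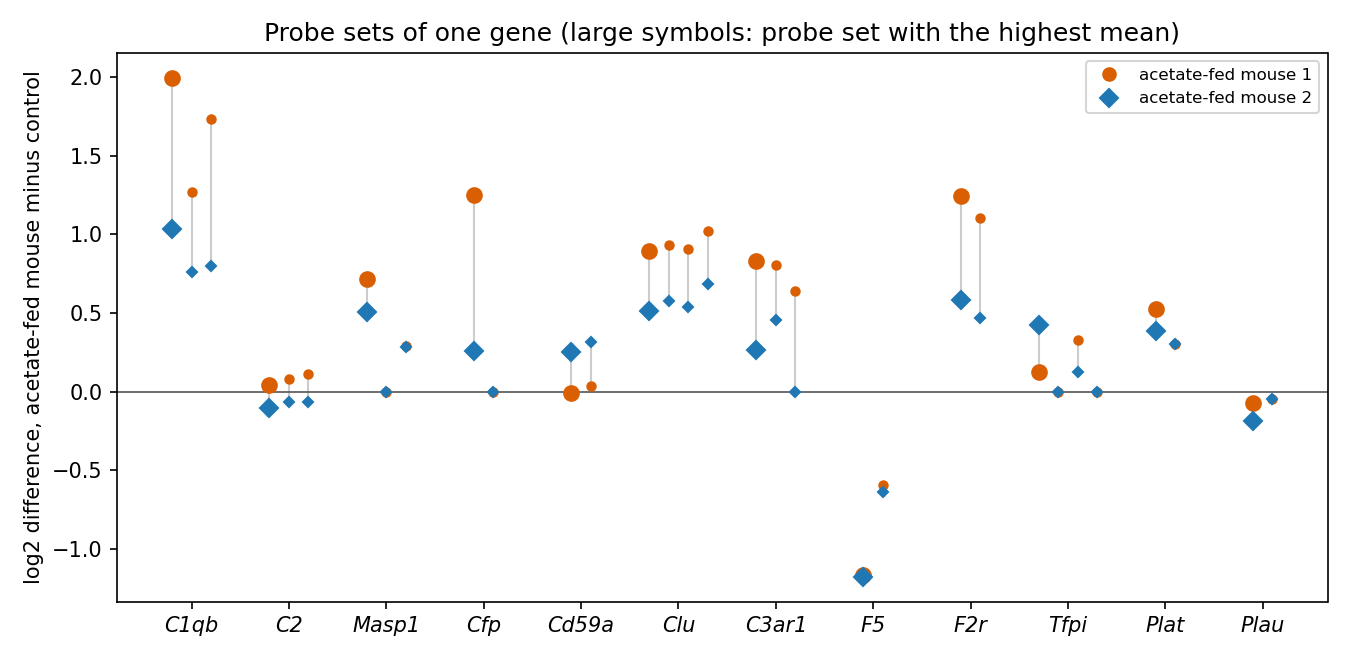
Log2 difference from the control (y axis) in acetate-fed mouse 1 (circles) and mouse 2 (diamonds) for each tested probe set of the 12 members with several; large symbols mark the probe set that stands for the gene. Probe sets of Clu and F2r lie close together, those of C1qb run from 1.27 to 1.99 in mouse 1, and 1 probe set each of Masp1 and Cfp and 2 of Tfpi lie at 0 in both mice.

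Hp had the largest difference of any member in either direction. It encodes haptoglobin, which binds free haemoglobin and is made by liver, fat and myeloid cells. Hp measured 7.73 in the control and 5.57 and 5.11 in acetate-fed mice 1 and 2, 4.45-fold and 6.14-fold lower. Both acetate-fed values lay well below the control, but the pair differed by 0.46, and limma's test on all probe sets did not call it (adjusted p = 0.25, and 5.2e-11 with tied pairs left out). Of 7 listed fat markers 5 were tested, and Retn and Fabp4 lay above the mean of 4.21 needed for testing on all 3 arrays. Both were below the control in both mice, as Hp was (30.9% of all genes). Retn was 9.26, 6.20 and 5.93, and Fabp4 was 10.96, 9.81 and 9.98. For Adipoq (9.98, 4.38 and 3.87), Adig and Cidec the mean of the acetate-fed values lay under that line. These genes were tested only because of their higher control values, so their direction carries no weight. The summed linear signal of all 5, which includes these genes, measured 3829 in the control and 1019 and 1111 in acetate-fed mice 1 and 2. Of 3 tested liver markers, Alb (7.85, 6.20 and 6.56) and Apoa2 (7.74, 6.70 and 6.81) lay below the control as well. Ahsg rose from 4.17 to 4.36 in both mice (adjusted p = 0.0091 by limma, acetate-fed values tied). The control value of Ahsg lay under the mean of 4.21 needed for testing, so Ahsg was tested only because of its higher acetate-fed values. The part of fat tissue or liver-type transcripts in the Hp value was not tested.

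Set side by side by usual source, macrophage-made and endothelial members lay mostly above the control and the 6 tested tubule-made members mostly below it. Over all genes tested, 26.0% lay above the control in both mice and 30.9% below it. Of the 8 macrophage-made members, 6 were above the control in both mice and F13a1 below, and their medians were 1.04 (mouse 1) and 0.26 (mouse 2). The F13a1 values were low, as given above, so its direction carries little weight. The 8 endothelial members had medians of 0.71 and 0.46. Of the 6 tubule-made members tested, 5 (Cfb, Plau, Fga, Fgb and Fgg) were below the control in both mice and Clu above, with medians of -0.17 and -0.38. Proximal tubule markers shifted alike, 8 of 10 below the control in both mice with medians of -0.15 and -0.26. Markers of other kidney segments went the other way, 5 of 6 tested above the control in both mice with medians of 0.18 and 0.50. C3 and C4b, also listed as tubule-made, were not tested. The summed linear signal of the 6 tubule-made members measured 6047 in the control and 9649 and 7526 in acetate-fed mice 1 and 2. This sum weighs genes by their linear signal, so Clu counts most in it. The part of tubule mass in the values of the tubule-made members was not tested. The 9 tested plasma proteins of liver origin had medians of 0 and 0, with F2, Masp1 and Cfi above the control in both mice, F5, Proc and Hp below, and 2 equal on all 3 arrays. The assignment of genes to sources was made by hand from general knowledge, and several proteins have more than 1 source.

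**Figure D3:**
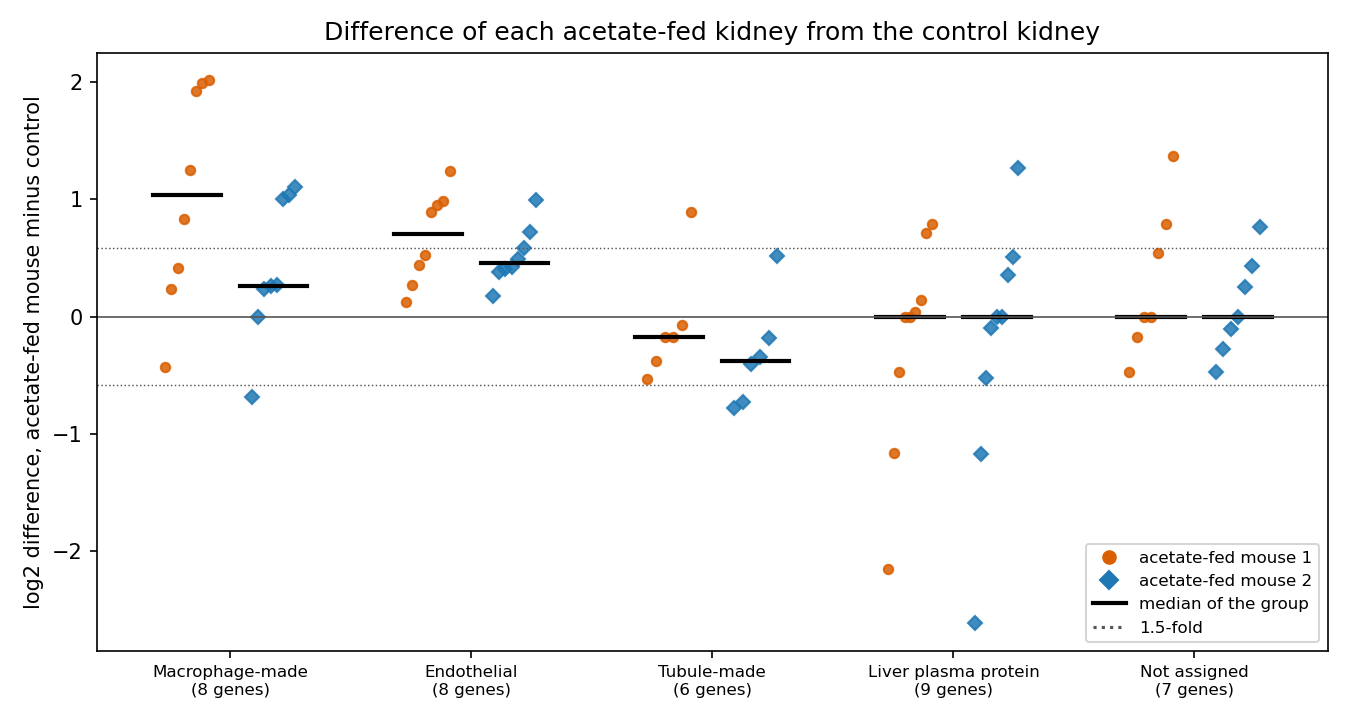
Log2 difference from the control array (y axis) of each tested member in acetate-fed mouse 1 (circles) and mouse 2 (diamonds), grouped by the usual source of the protein; black bars are medians and dotted lines mark 1.5-fold. All endothelial members lie above 0 in both mice, the macrophage-made members spread from F13a1 below 0 to the C1q chains at the top, and 5 of 6 tubule-made members lie below 0.

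The acetate-fed mice also differed from each other, a comparison that does not use the control. In mouse 1, 7 of the 38 members were at least 1.5-fold above mouse 2 (2.06% of all genes) and 0 at least 1.5-fold below it (0.520% of all genes). These were C1qa (2.01-fold), Cfp (1.99-fold), C1qb (1.94-fold), C1qc (1.76-fold), F2r (1.58-fold), F3 (1.57-fold) and Serping1 (1.53-fold). Over the macrophage-made members the median of mouse 1 minus mouse 2 was 0.69, over the endothelial members 0.12 and over all genes tested 0. Macrophage markers had a median of 0.79 for the same difference and endothelial markers 0.01. Fibroblast markers, at 0.92, and tubular injury markers, at 1.77, had larger medians than the macrophage markers. With 1 array per mouse, this gap between mice has no error of its own.

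**Figure D4:**
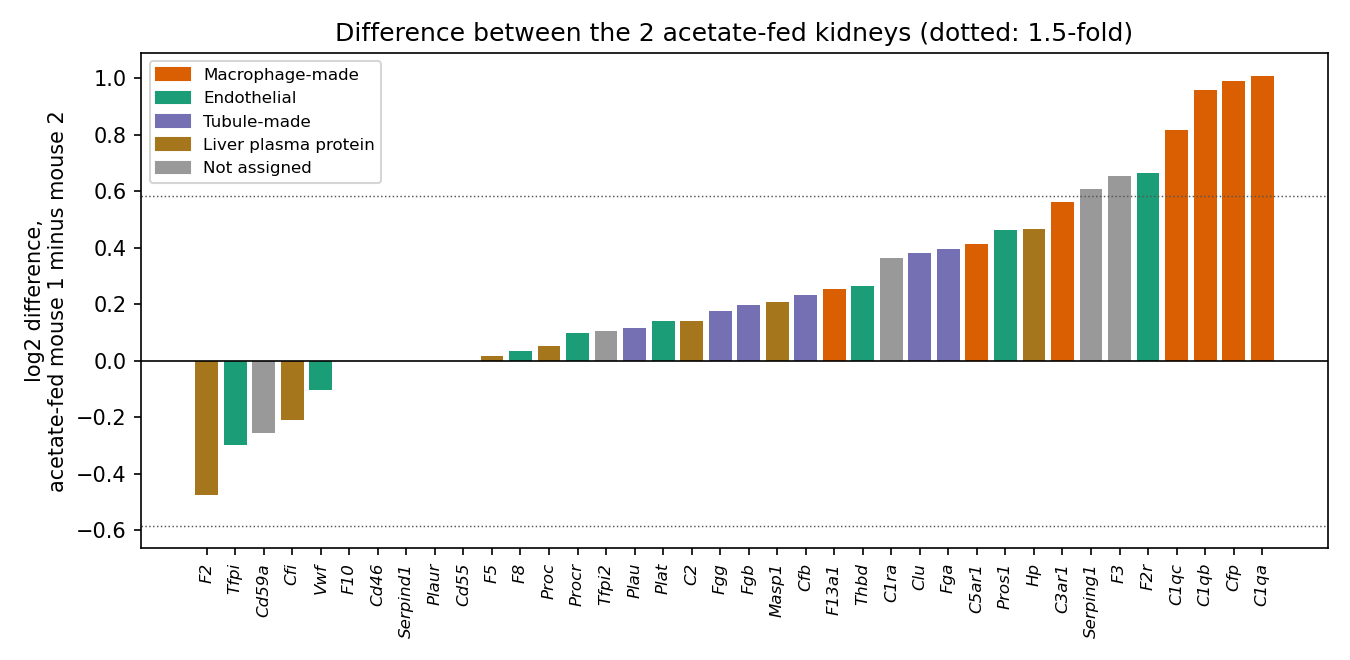
Log2 value of acetate-fed mouse 1 minus acetate-fed mouse 2 (y axis) for each tested member, ordered by size and coloured by usual source; dotted lines mark 1.5-fold. Macrophage-made members fill the right end, and none lies beyond 1.5-fold on the left, where F2 is lowest.

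Of the other genes of these pathways, 61 were listed, 48 found and 32 tested, and their medians were 0 in both mice. Limma called 0 of the 32 higher (3.97% of all genes were called higher) and 2 lower (4.92% of all genes). At an unadjusted p under 0.05 by limma, 1 was higher and 7 were lower. Both calls were lectin pathway genes with tied acetate-fed values. Masp2 fell from 5.17 to 4.94 in both mice (adjusted p = 0.0091) and Mbl1, a mannose-binding lectin, from 5.78 to 5.52 (adjusted p = 0.0091). In mouse 1, 6 of the 32 were at least 1.5-fold higher than the control (4.30% of all genes) and 4 lower (2.41% of all genes). In mouse 2 these numbered 2 (2.44% of all genes) and 4 (2.59% of all genes). At least 1.5-fold from the control in both mice were 2 higher genes and 3 lower ones, a share not counted over all genes. Serpina10, an inhibitor of factor X, measured 6.28 in the control and 8.19 and 6.91 in acetate-fed mice 1 and 2, and Cd93, an endothelial and myeloid receptor, was 7.85, 8.78 and 8.60. Serpinf2, the main inhibitor of plasmin, was 9.49, 8.65 and 7.92. The C8 gamma chain gene C8g was 7.92, 7.11 and 7.005, and A2m, a broad protease inhibitor, was 5.46, 4.17 and 4.11 (adjusted p = 0.067 by limma). Both acetate-fed values of A2m lay under the mean of 4.21 needed for testing, so it was tested only because of its higher control value.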

How the data were processed

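Biotin-labelled RNA of 3 kidneys was hybridised to Affymetrix arrays, 1 per mouse. The authors deposited log2 expression values for 45101 probe sets, with array medians of 4.91 to 4.94. Per the submitters' processing notes, MAS5 was among the tools, and the summary method is not given in the sources used here. Scanner files were not analysed here, so there are no detection or saturation calls, and precision is limited by the small number of arrays. All 3 value columns were used and grouped by the labelled agent.

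The 64 control probe sets were left out. Of the rest, 34945 had 1 symbol in the platform annotation, 932 several and 9160 none. The upper 60% by mean (27022 probe sets, mean at least 4.21) were tested with limma 3.58.1 in R 4.3.3. Settings were lmFit, eBayes with intensity trend, two-sided, Benjamini-Hochberg, threshold 0.05, leaving 1 residual degree of freedom. The control is assumed to vary like the acetate-fed pair, and p-values on all probe sets rest mainly on the spread between these 2 samples. With tied pairs left out, p-values rest mainly on a spread pooled over probe sets (26.5 prior degrees of freedom). Variation among control mice is not measured in either fit. The fit was tested on simulated data. Members with a 1.5-fold difference or a call are given in full, the others by value; other pathway genes are named when called or at least 1.5-fold from the control in both mice. Members, lists and alternatives were chosen with earlier results of these data known. Promoters came from RefSeq (GRCm38.p6), and plots from Python 3.11.15 with matplotlib 3.10.9.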

Additional observations from a re-analysis of the deposited data

How the results depend on the processing

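The limma calls among the members were the least stable values. Members called higher numbered 0 after quantile normalization, after median centring, in the upper 40% of probe sets and with the mean over all tested probe sets (6, 15, 1 and 5 at an unadjusted p under 0.05). They numbered 2 with no filter and 15 with tied acetate pairs left out. Members called lower numbered 0 after quantile normalization, after median centring and in the upper 40% (5, 8 and 3 unadjusted), 1 with the mean over probe sets and 6 without tied pairs. For the other pathway genes, 3 were called higher with no filter and 4 without tied pairs; those called lower numbered 0 after quantile normalization, median centring and in the upper 40% (5, 9 and 3 unadjusted), and 5 without tied pairs. The cause was not tested beyond the smaller number of genes in the upper 40% and in the untied fit.

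Counts of members past 1.5-fold or on one side of the control stayed within 1.5 times of the reported count, except those at least 1.5-fold lower in mouse 2, which numbered 3 in the upper 40% of probe sets and 3 with log2(linear value + 16). The median of the mean difference was 1.51 for macrophage-made members in the upper 40% (5 genes), against 0.65. For liver plasma proteins it was -0.017 after quantile normalization, -0.023 after median centring and -0.031 in the upper 40%. For the members without an assigned source it was 0.12 as reported, 0.15 after quantile normalization, 0.10 after median centring, 0.22 in the upper 40%, 0.12 with log2(linear value + 16), 0.15 with the mean over probe sets, and 0 to 0 with either acetate array left out. No called member changed sign under these alternatives. Of the members not called, F3 went from 0.22 to -0.11 without acetate-fed mouse 1, and without acetate-fed mouse 2 C2 went from -0.03 to 0.04 and Cd59a from 0.12 to -0.0059. Leaving out an acetate array leaves 1 array against 1, so no test could be run. No paired analysis was possible because the control carries no replicate number that links it to an acetate-fed mouse.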
